A study of Mus musculus with 4 samples.

Results

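The endothelial and sinusoidal marker genes described here are 10 genes of the vascular wall, *Stab1*, *Stab2*, *Lyve1*, *Cdh5*, *Pecam1*, *Cldn5*, *Emcn*, *Kdr*, *Eng* and *Sox18*, measured in sorted blood progenitors. All probe sets whose gene symbol is one of these names were taken, which gave 13 probe sets among the 45037 of the array, or 10 of 20656 named genes. *Tek*, *Tie1* and *Robo4* were kept apart. The cells were lineage-negative, cKit-positive, Sca1-positive (LSK) cells, a population enriched for hematopoietic stem cells (HSCs), sorted at E16.5 from fetal livers of C57BL/6x129 embryos. There were 2 arrays of *Ddb1*-deficient LSKs (DDB1 flox/flox, VavCre+) and 2 of control LSKs (DDB1 flox/flox, VavCre-), so that both groups carry the floxed alleles. By these labels Cre is in the *Ddb1*-deficient group alone, but elsewhere the study heads the controls as Cre-positive, and if the labels hold, Cre and the deletion cannot be told apart. Vav1-driven Cre acts in blood cells from stem cells onward, and *Ddb1*, the adaptor of the CUL4 ubiquitin ligase, is the deleted gene. The sources used here do not say whether each sample was a single embryo or pooled embryos, and p-values therefore reflect the scatter of these arrays alone, part of which may be technical.

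The vascular wall of the fetal liver is lined by sinusoidal endothelial cells, which take up waste molecules through scavenger receptors and sit next to the dividing blood progenitors. Endothelial cells hold together through cadherin and claudin junctions and respond to VEGF and to ligands of the BMP family. Several of these genes are not restricted to vessels: HSCs arise from endothelium and keep *Emcn*, *Pecam1*, *Eng* and, in the fetus, *Cdh5*, while tissue macrophages also express *Stab1* and, in some tissues, *Lyve1*. In bulk RNA of sorted cells, fewer cells of a type and less RNA per cell cannot be told apart, nor can more cells and more RNA per cell.

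Of the 10 genes, 6 had both *Ddb1*-deficient arrays above both controls (*Stab1*, *Cdh5*, *Stab2*, *Sox18*, *Emcn* and *Eng*), and 0 had both below. Over all genes 22.5% had both *Ddb1*-deficient arrays above both controls and 18.5% had both below. The log2 differences ran from 0.17 (*Pecam1*) to 2.82 (*Stab1*) with a median of 1.01, beside a median of 0.032 over all 20656 genes. limma called 0 of the 10 after Benjamini-Hochberg adjustment over all genes, with a smallest adjusted p of 0.133 (*Stab1*), and it called 0% of all genes in either direction. At an unadjusted p under 0.05 limma gave 5 of the 10 genes as higher, beside 4.9% of all genes, and 0 as lower, beside 6.03%. Groups with both arrays of one above both of the other are called separate below. Counted by probe set, 7 of 13 had separate and higher *Ddb1*-deficient arrays, against 21.5% of all probe sets, and 6 were higher at an unadjusted p under 0.05 by limma, against 4.2%, with 0 lower, against 5.48%. The 10 genes were proposed with earlier results of these arrays in view, so that these counts are a description.

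**Figure D1:**
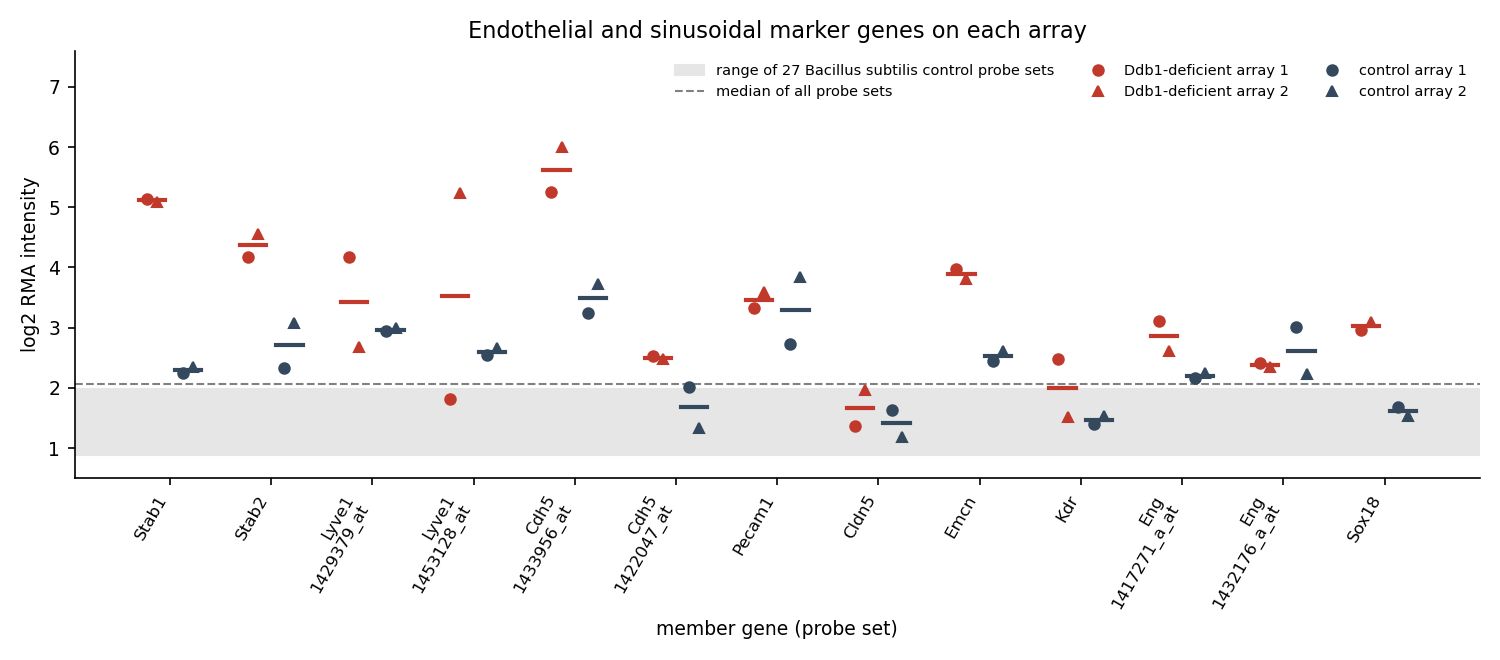
Log2 RMA intensity (y axis) of each of the 13 probe sets of the 10 marker genes (x axis). Red points are the 2 Ddb1-deficient arrays and dark points the 2 control arrays, with circles for array 1, triangles for array 2 and a bar at the group mean. The dashed line is the median of all probe sets (log2 2.06) and the grey band the range of 27 Bacillus subtilis control probe sets (0.89 to 1.98). The groups are far apart for Stab1 (5.13 and 5.09 in Ddb1-deficient LSKs, 2.24 and 2.34 in controls) and overlap for Lyve1, Pecam1, Cldn5 and Kdr.

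The arrays met their labels on the deleted gene. *Ddb1* had a log2 intensity of 4.58 and 4.33 in *Ddb1*-deficient LSKs, against 6.06 and 6.26 in controls (log2 difference -1.70, limma adjusted p = 0.162). Of the markers that define the sort, *Kit* was at 6.41 and 5.63 in *Ddb1*-deficient LSKs and at 6.18 and 6.40 in controls, and *Ly6a*, which encodes Sca1, at 7.01 and 6.84 in *Ddb1*-deficient LSKs and at 7.30 and 6.32 in controls. In each group array 1 carried *Kdm5d*, which is Y-linked, and array 2 carried *Xist*, so that the array number goes with the sex of the cells (*Xist* 2.15 and 9.96 in *Ddb1*-deficient LSKs, 1.93 and 10.09 in controls). The median of all probe sets was log2 2.06. The array's 27 probe sets for *Bacillus subtilis* transcripts lay between 0.89 and 1.98 on all 4 arrays, and 9 of these 27 had both *Ddb1*-deficient arrays above both controls, with a median log2 difference of 0.057. The 10 bioB and bioC hybridization controls were higher on both *Ddb1*-deficient arrays (median log2 difference 0.58). The 8 bioD and cre controls, which are brighter, differed by a median of 0.020, with a range from -0.029 to 0.41. Of these 8, 4 had both *Ddb1*-deficient arrays above both controls. The 3′ probe set of *Actb* exceeded its 5′ probe set by 0.26 and 0.51 in *Ddb1*-deficient LSKs, against 0.24 and 0.24 in controls. For *Gapdh* this gap, which reflects RNA integrity and labelling, was 3.55 and 3.61 in *Ddb1*-deficient LSKs, against 3.62 and 4.0 in controls, so that these 2 genes ran in opposite directions. The part of these signals in the results below was not tested.

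Promoters of *Stab1*, *Stab2* and *Emcn*, markers whose groups lay apart, are shown here for the letters they share. Of the other markers that lay apart, *Eng* is not printed, and *Cdh5* and *Sox18* had no promoter sequence available. The RefSeq promoter table (build GRCm38.p6) held 6 of the 10 genes, and the 250 bases before the annotated transcript start are printed 5′ to 3′ for *Stab1* (chr14:31168642-31168891, minus strand), *Stab2* (chr10:87007943-87008192, minus strand), *Emcn* (chr3:137340828-137341077, plus strand) and, as a gene whose groups overlapped, *Kdr* (chr5:75978456-75978705, minus strand). These starts lie inside the outermost start that RefSeq gives the gene, by 10 bases for *Stab1*, 96 for *Stab2*, 16 for *Emcn* and 617 for *Kdr*, and positions below count from the promoter table's start. Capitals mark the letters AGGAAG or CGGAAG on either strand (reversed as CTTCCT and CTTCCG), which contain the core that ETS factors such as Erg, Fli1 and Ets1 recognise.
Stab1: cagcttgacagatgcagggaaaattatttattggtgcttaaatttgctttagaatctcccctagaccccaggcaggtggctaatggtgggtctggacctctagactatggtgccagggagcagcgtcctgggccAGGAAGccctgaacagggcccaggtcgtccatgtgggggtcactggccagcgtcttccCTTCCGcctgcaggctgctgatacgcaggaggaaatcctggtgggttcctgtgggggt
Stab2: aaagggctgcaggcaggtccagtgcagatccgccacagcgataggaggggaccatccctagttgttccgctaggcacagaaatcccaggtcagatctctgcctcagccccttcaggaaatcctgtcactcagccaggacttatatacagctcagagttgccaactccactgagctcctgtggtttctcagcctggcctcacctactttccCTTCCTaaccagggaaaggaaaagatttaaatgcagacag
Emcn: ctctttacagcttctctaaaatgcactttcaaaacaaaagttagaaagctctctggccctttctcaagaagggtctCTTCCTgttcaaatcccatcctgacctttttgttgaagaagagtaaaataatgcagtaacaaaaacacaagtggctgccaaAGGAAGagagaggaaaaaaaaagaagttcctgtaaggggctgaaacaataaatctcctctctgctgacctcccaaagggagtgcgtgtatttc
Kdr: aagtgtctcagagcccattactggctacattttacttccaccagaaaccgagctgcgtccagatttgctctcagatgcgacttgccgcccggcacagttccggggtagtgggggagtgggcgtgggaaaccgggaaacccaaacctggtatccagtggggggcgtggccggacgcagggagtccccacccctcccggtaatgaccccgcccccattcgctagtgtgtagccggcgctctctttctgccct
AGGAAG stood in 4 of the 6 promoters (*Stab1*, *Stab2*, *Emcn* and *Eng*), and 29.5% of all 32851 promoter windows of this length hold it. CGGAAG stood in 1 of 6 (*Stab1*, 58 bases before the start), against 13.6% of all windows. The SOX-type letters AACAAT and ACAAAG, searched on both strands too, stood in 1 of 6 each. AACAAT lay in *Emcn* at 50 bases before the start and is held by 9.42% of all windows, and ACAAAG lay in *Eng* at 67 bases before the start and is held by 5408 of the 32851. None of the matches overlapped one another. The windows of *Kdr* and *Cldn5* held none of these letters, which says nothing about a factor at these genes.

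*Stab1* and *Stab2* encode stabilin-1 and stabilin-2, large scavenger receptors of liver sinusoids that clear modified lipoproteins and matrix fragments. *Stab1* had a log2 intensity of 5.13 and 5.09 in *Ddb1*-deficient LSKs, against 2.24 and 2.34 in controls. Both control arrays were near the median probe set, and the arrays of each group almost coincided. The log2 difference was 2.82 (95% interval 2.34 to 3.30), which is a 7.07-fold difference (5.06 to 9.87), with a limma adjusted p of 0.133. *Stab2* was at 4.18 and 4.56 in *Ddb1*-deficient LSKs and at 2.34 and 3.07 in controls. The groups did not overlap, although the control arrays differed from each other by 0.74. The log2 difference of *Stab2* was 1.67 (0.72 to 2.61), with a limma adjusted p of 0.262, and without control array 1 it was 1.30.

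*Lyve1* encodes a hyaluronan receptor of lymphatic and sinusoidal endothelium, and its 2 probe sets contradicted each other. The first probe set read 4.17 and 2.69 in *Ddb1*-deficient LSKs, against 2.94 and 2.99 in controls. The second probe set read 1.81 and 5.24 in *Ddb1*-deficient LSKs, against 2.55 and 2.66 in controls. The first probe set was thus high on *Ddb1*-deficient array 1 and the second on array 2, although the deposited annotation aligns both to the same span of chromosome 7, and in both the groups overlapped. The log2 differences were 0.46 (95% interval -1.08 to 2.00, limma adjusted p = 0.837) for the first and 0.92 (-2.55 to 4.39, adjusted p = 0.867 over all probe sets) for the second, so that no difference of *Lyve1* was detectable.

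The junction genes split. *Cdh5* encodes VE-cadherin, the adhesion molecule of endothelial adherens junctions. It was at a log2 intensity of 5.25 and 6.01 in *Ddb1*-deficient LSKs, against 3.25 and 3.72 in controls. All 4 values lay above the *Bacillus* band, and the groups were apart by 1.52 at their nearest arrays. The log2 difference was 2.14 (95% interval 1.14 to 3.15), or 4.41-fold, with a limma adjusted p of 0.217. A second, dimmer probe set of *Cdh5* had 2.53 and 2.48 in *Ddb1*-deficient LSKs, against 2.01 and 1.34 in controls, which is a log2 difference of 0.83 in the same direction (limma adjusted p = 0.512 over all probe sets). Its control array 2 lay within the *Bacillus* band and control array 1 just above it, so that the size of this difference is uncertain.

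*Pecam1* encodes the adhesion molecule CD31, which endothelium shares with HSCs, platelets and leukocytes. Its log2 intensity was 3.33 and 3.59 in *Ddb1*-deficient LSKs and 2.74 and 3.85 in controls. The control arrays enclosed both *Ddb1*-deficient arrays. The log2 difference of 0.17 had an interval from -1.06 to 1.39, and its sign turned without control array 1 (-0.39). *Cldn5* encodes claudin-5, the claudin of endothelial tight junctions, and lay in the *Bacillus* band on all 4 arrays, at 1.36 and 1.97 in *Ddb1*-deficient LSKs and at 1.64 and 1.19 in controls. These values are too dim for a comparison (log2 difference 0.25, interval -0.63 to 1.14).

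*Emcn* encodes endomucin, a sialomucin of venous and capillary endothelium and of HSCs. It was at a log2 intensity of 3.98 and 3.81 in *Ddb1*-deficient LSKs, against 2.45 and 2.61 in controls. The 2 groups were narrow and apart. The log2 difference was 1.37 (95% interval 0.84 to 1.89), or 2.58-fold, with a limma adjusted p of 0.184. *Sox18* encodes a transcription factor of the SoxF group that directs vascular and lymphatic development. It was at 2.96 and 3.09 in *Ddb1*-deficient LSKs, against 1.68 and 1.54 in controls. The controls lay within the *Bacillus* band and the *Ddb1*-deficient arrays above it, so that the size of the difference is set in part by a control signal at background. The fitted log2 difference of *Sox18* was 1.42 (0.91 to 1.92), with a limma adjusted p of 0.172.

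The 2 receptors of vascular growth signals differed less. *Kdr*, the main VEGF receptor of endothelium, was at a log2 intensity of 2.48 and 1.52 in *Ddb1*-deficient LSKs and at 1.40 and 1.53 in controls. Only *Ddb1*-deficient array 1 stood above the *Bacillus* band, and the log2 difference was 0.53 with all arrays and 0.056 without that array. *Eng* encodes endoglin, a co-receptor for BMP ligands on endothelium and HSCs. One probe set of *Eng* read 3.11 and 2.61 in *Ddb1*-deficient LSKs, against 2.17 and 2.24 in controls, without overlap (log2 difference 0.66, interval -0.02 to 1.34, limma adjusted p = 0.468). The other read 2.40 and 2.34 in *Ddb1*-deficient LSKs and 3.01 and 2.23 in controls, where the groups overlapped (log2 difference -0.25). Averaged over its pair of probe sets, *Eng* differed by 0.20.

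**Figure D2:**
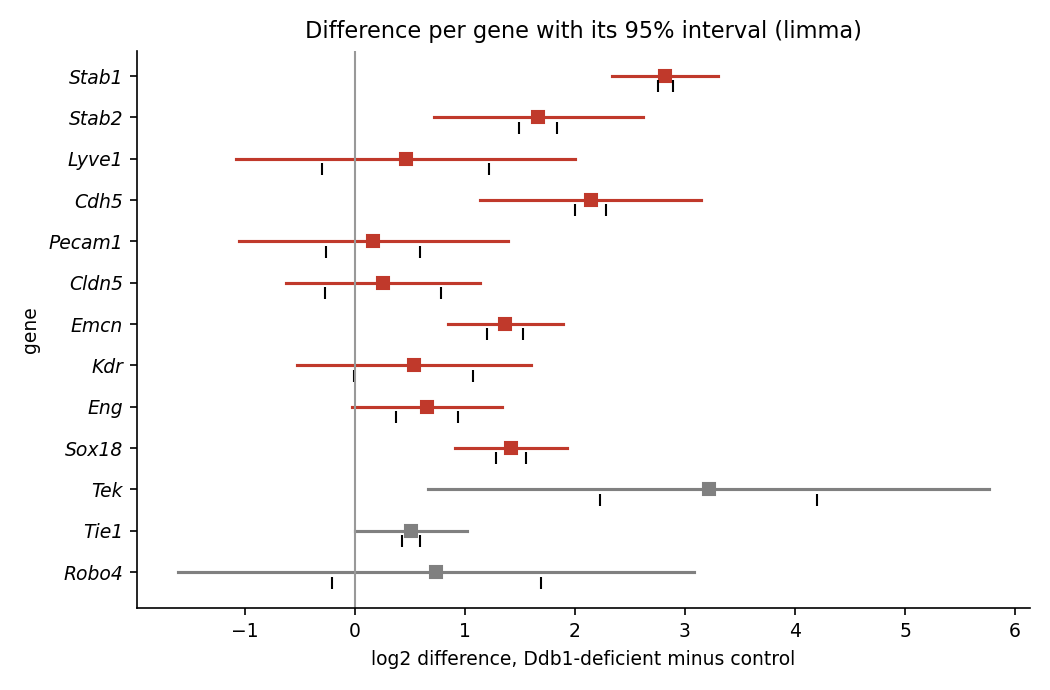
Log2 difference, Ddb1-deficient minus control (x axis), of the 10 marker genes in red and of Tek, Tie1 and Robo4 in grey (y axis), each with its brightest probe set. Squares are the differences from 2 arrays against 2, lines their 95% intervals by limma, and ticks the differences within array number 1 and within array number 2. The intervals of Stab1, Stab2, Cdh5, Emcn, Sox18, Tek and Tie1 lie above 0 before adjustment over all genes, and those of Tek and Robo4 are the widest. The controls of Sox18 and Tie1 lay within the Bacillus band.

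Within array numbers, which also match the sex of the cells, *Stab1* differed by 2.89 between the arrays numbered 1 and by 2.75 between those numbered 2. *Cdh5* differed by 2.00 and 2.28, *Stab2* by 1.84 and 1.49, *Emcn* by 1.53 and 1.20, *Sox18* by 1.28 and 1.55 and *Eng* by 0.94 and 0.37. These 6 genes therefore had the same direction in both, while *Lyve1* (1.22 and -0.30), *Pecam1* (0.59 and -0.26), *Kdr* (1.07 and -0.0054) and *Cldn5* (-0.27 and 0.78) did not. The 10 genes scattered more between the 2 *Ddb1*-deficient arrays (median absolute gap 0.44) than between the 2 control arrays (0.15), and over all genes these gaps were 0.32 and 0.24. Leaving out any 1 array kept the log2 difference of *Stab1* between 2.77 and 2.87 and that of *Emcn* between 1.28 and 1.45.

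**Figure D3:**
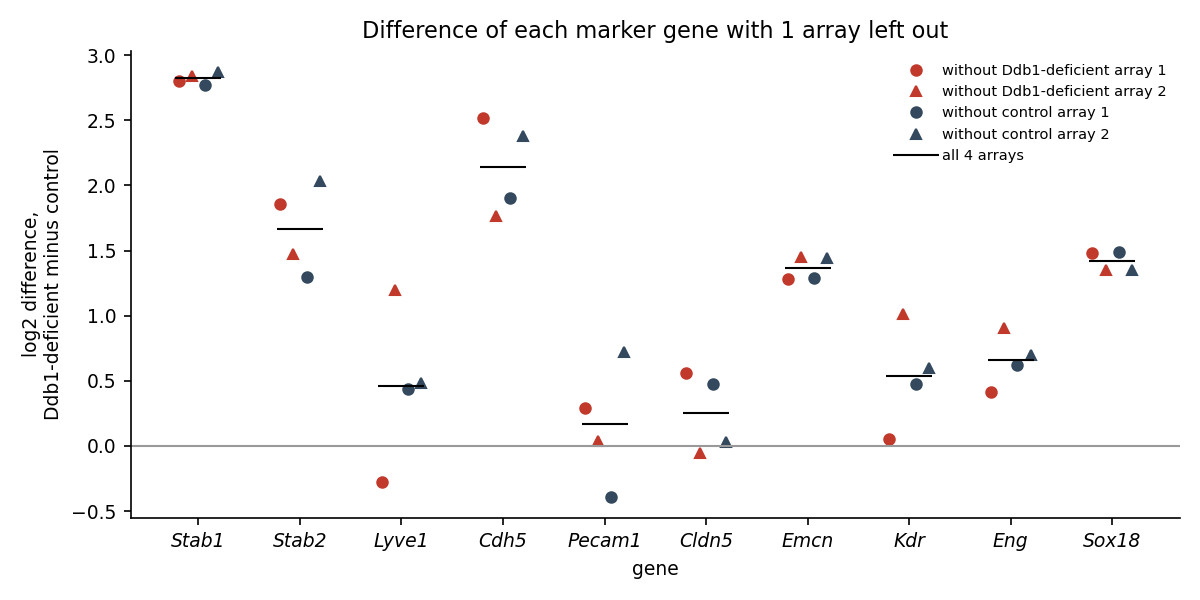
Log2 difference, Ddb1-deficient minus control (y axis), of each marker gene (x axis) after leaving out 1 Ddb1-deficient array (red) or 1 control array (dark), with a black bar for all 4 arrays. Stab1 and Emcn hardly move, and Sox18 does so against controls at background, whereas Lyve1 turns to -0.28 without Ddb1-deficient array 1, Pecam1 to -0.39 without control array 1 and Cldn5 to -0.051 without Ddb1-deficient array 2.

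Among the vascular receptors kept apart, *Tek*, the angiopoietin receptor, was at a log2 intensity of 6.24 and 3.76 in *Ddb1*-deficient LSKs, against 2.03 and 1.53 in controls, *Tie1* at 2.13 and 2.12 in *Ddb1*-deficient LSKs, against 1.71 and 1.52 in controls, and *Robo4* at 1.71 and 4.0 in *Ddb1*-deficient LSKs, against 1.93 and 2.31 in controls. *Tek* was thus above both controls on both *Ddb1*-deficient arrays, and higher on array 1. *Robo4* was above both controls on array 2 alone, and each probe set of *Lyve1* was so on 1 *Ddb1*-deficient array alone. In contrast *Stab1*, *Emcn* and *Sox18* were alike on both *Ddb1*-deficient arrays. The controls of *Tie1* lay within the *Bacillus* band, as did control array 2 of *Tek*.

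Among 16 junction partners, 12 had both *Ddb1*-deficient arrays above both controls, against 22.5% of all genes, and 0 below, against 18.5%. At an unadjusted p under 0.05 by limma 6 were higher, against 4.9% (median log2 difference 0.63, with 0 called after adjustment). The widest gaps were those of *Tjp1*, the scaffold ZO-1 (log2 difference 2.44), and *Jup*, plakoglobin (2.08). *Jup* was at 6.13 and 6.07 in *Ddb1*-deficient LSKs, against 4.15 and 3.89 in controls. *Esam*, an adhesion molecule of endothelium and HSCs, was uneven, at 3.84 and 4.79 in *Ddb1*-deficient LSKs, against 3.27 and 2.02 in controls, with a log2 difference of 1.67, or 1.05 without control array 2. *Ptprb*, the phosphatase that acts on VE-cadherin and Tek, was at 3.45 and 2.85 in *Ddb1*-deficient LSKs, against 1.77 and 1.30 in controls, which is within the *Bacillus* band and leaves the size of the difference unmeasured. The catenins that bind VE-cadherin were bright in both groups, *Ctnnb1* at 11.51 and 11.43 in *Ddb1*-deficient LSKs and at 11.32 and 11.18 in controls, and *Ctnnd1* at 8.20 and 8.94 in *Ddb1*-deficient LSKs and at 7.73 and 7.25 in controls.

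Genes of the sinusoid and of scavenging divided into bright and dim ones. Of 19 genes, 10 had both *Ddb1*-deficient arrays above both controls, against 22.5% of all genes, and 0 below, against 18.5%. At an unadjusted p under 0.05 by limma 5 were higher, against 4.9%, and the median log2 difference was 0.22. The mannose receptor *Mrc1* was at 10.21 and 10.56 in *Ddb1*-deficient LSKs, against 6.98 and 8.29 in controls (log2 difference 2.75), and *Fcna*, ficolin A, at 8.99 and 9.59 in *Ddb1*-deficient LSKs, against 6.56 and 7.04 in controls (2.49). *Ctsl*, a lysosomal protease, differed by 2.32 and *Cd36*, a lipid scavenger receptor, by 1.63, and macrophages express these 4 genes as well. In contrast 12 of the 19 were at or below the median probe set in both groups, among them *Clec4g*, *Gpr182*, *Oit3* and *Plvap*, which mark sinusoidal or fenestrated endothelium. *Clec4g* was at 1.72 and 2.05 in *Ddb1*-deficient LSKs, against 1.28 and 1.28 in controls, which lay within the *Bacillus* band. It was separate and higher (log2 difference 0.60) and is among the 5 counted above. *Plvap* was at 2.04 and 1.63 in *Ddb1*-deficient LSKs, against 1.46 and 1.90 in controls. *Gpr182* differed by -0.087 and *Oit3* by 0.11, with overlapping groups, as *Plvap* had. Of the other dim genes, *Rspo3* (0.47), *Ntn4* (0.42) and *Wnt2* (0.22) were separate and higher, within the *Bacillus* band on all 4 arrays. The remaining dim genes had overlapping groups. The less dim *Dnase1l3* (0.62) and *Flt4* (0.48) were separate and higher too.

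The signaling genes around *Kdr* and *Eng* are described next. Of 10 VEGF ligands and receptors 4 had separate and higher *Ddb1*-deficient arrays and 2 separate and lower ones (median log2 difference 0.10). Over all genes 22.5% were separate and higher and 18.5% separate and lower. *Nrp2*, a VEGF and semaphorin co-receptor, was at 3.89 and 2.60 in *Ddb1*-deficient LSKs, against 1.87 and 1.87 in controls, where it lay within the *Bacillus* band, as *Flt4* did, while *Plcg1*, which relays *Kdr* signals and many others, was at 7.37 and 5.73 in *Ddb1*-deficient LSKs, against 7.72 and 8.39 in controls, and *Nrp1* differed by -0.59. *Flt1*, the other large VEGF receptor of endothelium, lay at 2.03 and 1.80 in *Ddb1*-deficient LSKs and at 1.96 and 1.69 in controls. Of 13 genes measured around endoglin 2 were separate and higher and 2 separate and lower (median 0.11), with *Tgfbr3*, betaglycan, a relative of endoglin, at 6.67 and 7.24 in *Ddb1*-deficient LSKs against 5.36 and 5.18 in controls (log2 difference 1.68), while the log2 difference was -1.28 for *Id2* and -1.26 for *Smad1*, and *Id1*, a BMP target, differed by 0.28.

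Transcription factors used in endothelium were measured for 18 genes. Of these 7 had separate and higher and 5 separate and lower *Ddb1*-deficient arrays, against 22.5% and 18.5% of all genes (median log2 difference 0.087). *Ets1* was at 6.82 and 5.79 in *Ddb1*-deficient LSKs, against 8.35 and 8.54 in controls (log2 difference -2.14), and the relatives *Fli1* (-0.51) and *Erg* (-0.53, groups overlapping) were bright in both groups. *Hey1*, a Notch target, was at 3.59 and 5.69 in *Ddb1*-deficient LSKs, against 2.56 and 3.16 in controls, a log2 difference of 1.78, or 0.73 without *Ddb1*-deficient array 2. *Tal1* was at 5.90 and 5.36 in *Ddb1*-deficient LSKs, against 4.89 and 3.93 in controls. *Prox1*, which directs lymphatic and hepatic fate, was at 2.21 and 3.10 in *Ddb1*-deficient LSKs, against 2.20 and 0.97 in controls, so that its nearest arrays differed by 0.013. The SoxF relatives of *Sox18* stayed dim, *Sox17* at 2.00 and 2.01 in *Ddb1*-deficient LSKs and at 1.92 and 1.82 in controls, and *Sox7* at 1.56 and 1.62 in *Ddb1*-deficient LSKs and at 1.34 and 1.76 in controls.

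Of 29 further vascular genes measured, 12 had separate and higher *Ddb1*-deficient arrays, against 22.5% of all genes, and 1, *Cd93*, separate and lower ones, against 18.5%. Their median log2 difference was 0.31, with 4 higher and 1 lower at an unadjusted p under 0.05 by limma, against 4.9% and 6.03%. *Myct1*, expressed in endothelium and HSCs, was at 9.92 and 6.96 in *Ddb1*-deficient LSKs, against 4.69 and 4.09 in controls (log2 difference 4.05, or 2.57 without *Ddb1*-deficient array 1), and its 3 other probe sets differed by 2.28, 1.74 and 0.93. *Vcam1*, an adhesion molecule of endothelium and macrophages, was at 10.75 and 11.06 in *Ddb1*-deficient LSKs, against 8.28 and 8.66 in controls, and *Podxl*, podocalyxin, at 6.23 and 6.99 in *Ddb1*-deficient LSKs, against 3.73 and 4.91 in controls. *Selp*, P-selectin, was uneven, at 2.52 and 4.19 in *Ddb1*-deficient LSKs and, within the *Bacillus* band, at 1.95 and 1.49 in controls.

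**Figure D4:**
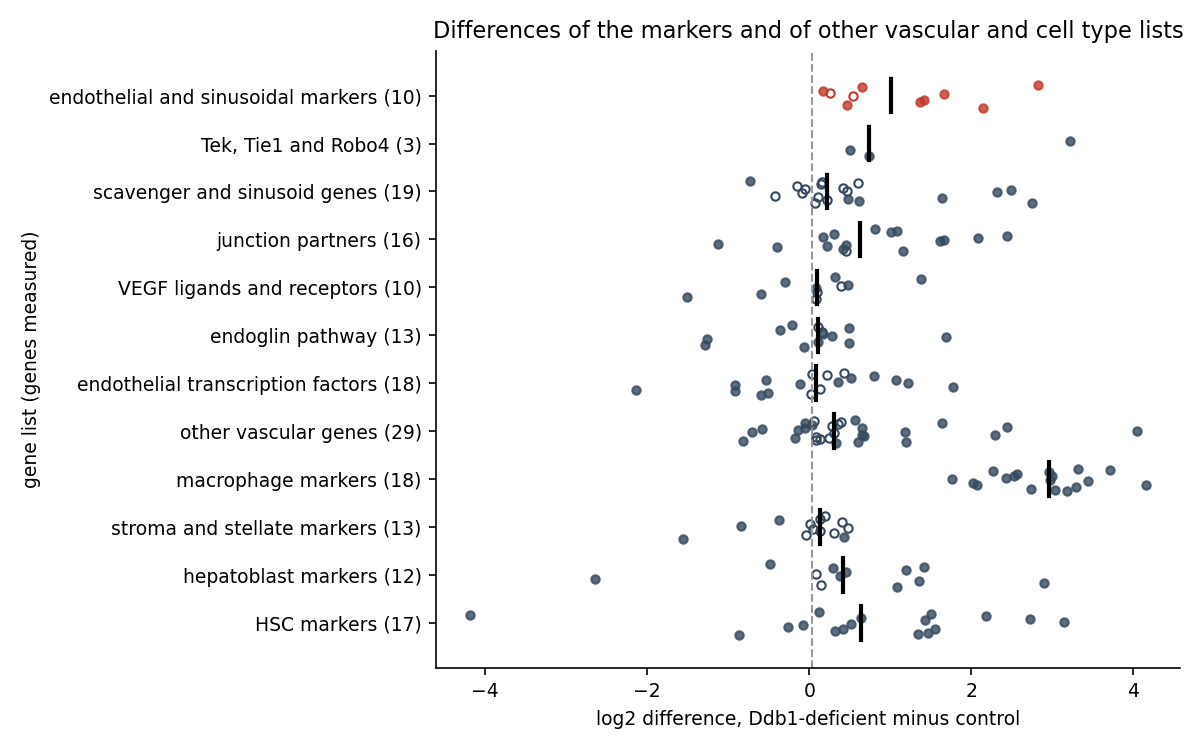
Log2 difference, Ddb1-deficient minus control (x axis), of each gene of the marker set, of Tek, Tie1 and Robo4 and of 10 other lists (y axis, with the number of genes measured). Platelet and erythroid markers are not drawn, and the HSC list drawn holds all 17 genes. Open circles are genes at or below the median probe set in both groups, black bars list medians and the dashed line the median of all genes. The 10 markers have a median of 1.01, the macrophage markers 2.97, and the VEGF, endoglin and transcription factor lists lie near 0.1.

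Markers of other cell types differed on the same arrays. On both *Ddb1*-deficient arrays 18 of 18 macrophage markers lay above both controls, against 22.5% of all genes, with log2 differences from 1.76 to 4.16 (median 2.97). All 18 lay above the median probe set on all 4 arrays. Their summed linear intensity was 18191 and 21512 in *Ddb1*-deficient LSKs, against 2794 and 4185 in controls. *C1qa*, a complement subunit made by macrophages, was at a log2 intensity of 6.97 and 7.34 in *Ddb1*-deficient LSKs, against 2.72 and 3.28 in controls, and *Clec4f*, a Kupffer cell lectin, at 9.48 and 9.17 in *Ddb1*-deficient LSKs, against 5.79 and 6.22 in controls. *Spic*, a transcription factor of red pulp macrophages, differed by 3.71. The part of the macrophage signal in the results for *Stab1*, *Lyve1*, *Mrc1* and the other scavenger genes was not tested.

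The summed linear intensity of the 10 vascular markers was 159 and 176 in *Ddb1*-deficient LSKs, against 52.5 and 67.9 in controls. Of 13 stroma and stellate cell markers 3 were separate and higher and 2 separate and lower (median log2 difference 0.13), and 9 were at or below the median probe set in both groups. Their sum was 65.7 and 62.6 in *Ddb1*-deficient LSKs, against 70.6 and 84.9 in controls. Beside the stroma counts and those of the lists that follow, 22.5% of all genes were separate and higher and 18.5% separate and lower. The stroma counts lay near these shares. Of 12 hepatoblast markers 6 were separate and higher and 2 separate and lower (median 0.41), with a sum of 733 and 999 in *Ddb1*-deficient LSKs, against 239 and 274 in controls. The log2 difference was 2.89 for *Trf*, 1.42 for *Apoa1*, 1.36 for *Alb* and -2.64 for *Hnf4a*. *Trf* was the brightest hepatoblast marker on every array and weighs most in that sum. Its log2 intensity was 8.91 and 9.39 in *Ddb1*-deficient LSKs, against 6.19 and 6.33 in controls. Of 8 erythroid markers 7 were separate and higher and 0 lower (median 1.31), with a sum of 2443 and 2884 in *Ddb1*-deficient LSKs, against 468 and 1115 in controls. Of 9 platelet markers 3 were separate and higher and 2 separate and lower (median 0.43), with a sum of 548 and 495 in *Ddb1*-deficient LSKs, against 205 and 204 in controls. *Pf4* was the brightest platelet marker on both *Ddb1*-deficient arrays and weighs most in their sums. It read 8.89 and 8.56 on these arrays (log2) and 6.22 and 6.29 on the controls, so that the higher platelet sum rests on this gene. The separate and lower platelet markers were *Itgb3* (log2 difference -2.07) and *Mmrn1* (-0.96). The part of these signals in the vascular results was not tested.

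HSC genes, which overlap with vascular genes in biology, differed as well. The list used here held 13 HSC genes, without *Kit* and *Ly6a* of the sort and without *Cd48* and *Flt3*, which mark later progenitors. Of these 13 genes, 10 were separate and higher, against 22.5% of all genes, and 1 separate and lower, against 18.5% (median log2 difference 1.43). Their sum was 1584 and 1526 in *Ddb1*-deficient LSKs, against 509 and 500.4 in controls. *Mecom*, a regulator of HSC renewal, differed by 3.14, *Procr*, the endothelial protein C receptor that also marks HSCs, by 2.73 and *Mllt3* by 2.18. *Flt3* was at 2.00 and 1.49 in *Ddb1*-deficient LSKs, at the *Bacillus* band, against 6.01 and 5.85 in controls, so that the size of its difference was not measured. limma called 0 genes of each of these lists after adjustment over all genes. How much of the signal of *Emcn*, *Cdh5*, *Eng* and *Pecam1* belongs to HSCs and how much to vascular cells cannot be told apart on these arrays.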

How the data were processed

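RNA of LSK cells (20 ng) was amplified in 2 cycles and hybridized to Affymetrix Mouse430_2 arrays, 2 for each group. Samples were grouped by their labels. The authors normalized the arrays by RMA in GeneSpring and deposited the RMA intensity on a linear scale, beside log2 values set against the control mean. The deposited series matrix holds those log2 values. A second deposited table holds the authors' own test (p-value, fold change, direction) and was not used.

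The linear RMA values were taken to log2. The 64 control probe sets were left out of the tests. Of 45037 others, 37463 carry 1 gene name, 1460 several and 6114 none, and 34158 names were matched to RefSeq by gene ID (4650 renamed). For each of 20656 genes the probe set brightest on average was kept. The comparison was fitted in R 4.3.3 with limma 3.58.1 (lmFit, then eBayes, no block), with Benjamini-Hochberg adjustment over all genes, or over all probe sets where so stated, and a threshold of 0.05. Intervals are 95% intervals of that fit before adjustment. With 2 arrays a group, the smallest two-sided p of an exact permutation test is 0.333. The fit was tested on simulated data. No detection calls were used, and the number of arrays limits the precision. Pearson's r over probe sets was 0.940 between the *Ddb1*-deficient and 0.970 between the control arrays.

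Genes outside the 10 are named by a rule: *Tek*, *Tie1* and *Robo4*, genes that check the labels, and up to 4 genes a list with the largest absolute log2 difference among those with separate arrays and a mean above the median probe set in the higher group. *Ctnnb1*, *Ctnnd1*, *Clec4g*, *Gpr182*, *Oit3*, *Plvap*, *Flt1*, *Fli1*, *Erg*, *Sox7*, *Sox17*, *Cd93*, *Cd48*, *Kit*, *Ly6a*, *Actb* and *Gapdh* were chosen for their role after their values were seen, as was the split of the HSC list. *Rspo3*, *Ntn4*, *Wnt2* and *Dnase1l3* were named after their values were seen, for their separate arrays. The members and lists were chosen with earlier results of these data known. The alternatives tried were eBayes with trend and robust, the methods' t-test, the replicate number as a block, the mean of all probe sets, no _x_at or _s_at probe sets, probe sets above the median, the series matrix values, median centring, a repeated quantile normalization and leaving out each array.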

Additional observations from a re-analysis of the deposited data

How the results depend on the processing

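No fit called any of the 10 genes, with 0 calls under each of 13 alternatives. *Stab1*, *Stab2*, *Cdh5*, *Emcn*, *Sox18*, *Eng* and *Kdr* had a positive log2 difference under each alternative that measured them. The direction reversed for *Pecam1* (-0.39) without control array 1, for *Lyve1* (-0.28) without *Ddb1*-deficient array 1 and for *Cldn5* (-0.051) without *Ddb1*-deficient array 2. With 1 array left out the median log2 difference of the markers ranged from 0.92 to 1.28, the count with separate arrays from 7 to 8, which fewer arrays make easier to reach, and the count at an unadjusted p under 0.05 by limma from 5 to 7. The methods' t-test gave 4 at its unadjusted p, without *Stab2*. With 1 array left out *Lyve1* reached 1.20, *Pecam1* 0.72 and *Cldn5* 0.56 at most. The highest median, 1.28, came without *Ddb1*-deficient array 2. With probe sets above the median alone, which drops *Kdr* and *Cldn5*, the median was 1.39 over 8 genes. That filter took the mean over all 4 arrays. *Sox18*, with controls at 1.68 and 1.54, passed it only through its *Ddb1*-deficient arrays. The filter thus favours genes that are high in 1 group, and the 1.39 adds no support. Over all genes, the methods' t-test with Benjamini-Hochberg called 1 gene higher (*4930551I15Rik*, log2 difference 0.072) and 1 lower (*Kctd15*, -0.044), both dim and named here after their values were seen. *Kctd15* read the same value on both arrays of each group (1.11 in *Ddb1*-deficient LSKs, 1.16 in controls), and *4930551I15Rik* nearly so. Both calls thus rest on an almost absent scatter of dim values. By contrast, limma at an unadjusted p under 0.05 gave 1012 higher and 1245 lower. The replicate number as a block gave 5 of the 10 at an unadjusted p under 0.05 by limma, as without it, with a smallest adjusted p of 0.391. Deviations of same-numbered arrays correlated at -0.016 over genes. This correlation mixes the scatter of all genes, so it cannot show whether same-numbered arrays share more than a number and the sex of the cells. Signal near the *Bacillus* control probe sets limits *Cldn5* and *Kdr* and the control level of *Sox18*, *Tie1*, *Ptprb*, *Selp*, *Nrp2*, *Flt4* and *Clec4g*. It also limits control array 2 of *Tek* and the controls of the second probe set of *Cdh5*.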
